A study of Mus musculus with 15 samples.

Results

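Transcript levels were compared between erythroid cells that lack both Klf3 and an intact Klf8 gene and cells in which only Klf8 is disrupted, so that the only labelled difference between the groups is the loss of Klf3. The comparison used 8 of the 15 arrays of the series, chosen by their titles. The double-mutant group held 4 arrays of genotype Klf3-/- Klf8gt/gt, and the control group held 4 arrays of genotype Klf8gt/gt. Both groups therefore carry the Klf8 gene trap, whose place in the gene the labels do not give. All samples were TER119+ cells of FVB/NJ fetal liver at stage E13.5, taken with magnetic beads against TER119, a surface antigen of maturing red cells. The remaining 7 arrays, 4 wild-type and 3 Klf3-/-, show the same loss of Klf3 where Klf8 is intact. Their group means share no array with the main comparison, but all 15 arrays set the spread used in both tests. The labels give litter matching where it could be had, but not which arrays share a litter or whether each is a separate embryo, so the p-values rest on the spread among these arrays alone, part of which may be technical.

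KLF3 and KLF8 are zinc finger proteins of the Kruppel-like factor family. Both bind CACCC and related GC-rich elements and recruit the corepressor CtBP, so they are known mainly as repressors. In red cell precursors KLF1, the activating member of the family, turns on both Klf3 and Klf8, and KLF3 in turn represses Klf8. Fetal liver at this stage is the site of definitive red cell production, where erythroblasts mature around a central macrophage and beside hepatocytes.

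The values are log2 signals of transcript clusters, the units into which the array's probes are summarised. Array medians of the 8 arrays lay between 6.28 and 6.41, and correlations among them between 0.978 and 0.997. The 12 measured erythroid markers, among them Slc4a1 and Alas2, read high, and 0 of them passed the test. Their mean was 12.46 to 12.77 on the double-mutant and 12.59 to 12.67 on the Klf8-trap arrays. The mean of 17 hepatocyte markers was 10.76 to 11.92 and 11.70 to 12.42 on the same arrays. Liver transcripts were thus present as well, and the purity of the cells was not tested. Judged by the Y-linked genes and Xist, the double-mutant and Klf8-trap groups each held 2 male and 2 female samples. Klf8 is X-linked, so the genotype Klf8gt/gt as written does not suit the males, and it was not checked. All 4 wild-type samples were male, and the Klf3-/- samples were 1 male and 2 female, so the comparison on the intact background and the interaction are not balanced by sex. A fold is given only where both group means lie above the array medians, because no detection calls accompany the values. In bulk samples, fewer cells of a type and less RNA per cell cannot be told apart.

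In the double mutant 347 clusters were higher and 438 lower than in the Klf8 trap, of 23410 with a gene symbol. All of these passed an adjusted p of 0.05 in limma, a linear model fitted to all 15 arrays with Benjamini-Hochberg adjustment over all clusters. The share called was 3.35% in all, 1.48% higher and 1.87% lower. The rises included the larger changes. Among the calls, 95 rose and 82 fell by more than 1 log2 unit, and 22 rose but 1 fell by more than 2. The median call was 0.70 for rises and -0.62 for falls, against a median difference of -0.003 and a median standard error of 0.11 over all clusters. The arrays of the groups did not overlap for 1716 clusters (7.33%), of which 675 were also called (2.88%). The number of calls depended on single arrays. It was 785 with all arrays, 504 without double-mutant replicate 3, 1777 without double-mutant replicate 4, 1741 without Klf8-trap replicate 1, 397 without replicate 2 of that group, 473 without replicate 3 and 393 without replicate 4. The balance of directions depended on scaling, since quantile normalization of the arrays gave 482 higher and 338 lower, 58.8% higher against 44.2% as deposited. With same-numbered arrays treated as pairs within the 8 arrays, 229 clusters were higher and 465 lower. A fit of the 8 arrays alone, which estimates the spread without wild type and Klf3-/-, called 132 higher and 56 lower. Wild-type and Klf3-/- arrays were more alike within their groups, so the shared spread can understate the error of this comparison.

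The targeted gene was examined first. The Klf3 signal was higher, not lower, on the arrays labelled double mutant, at 11.73, 11.36, 11.34 and 11.06 for replicates 1 to 4 against 10.21, 10.30, 10.30 and 10.26 in the Klf8 trap. Every double-mutant array lay above every Klf8-trap array, and the difference was 1.10 ± 0.12 (SE, n = 4 and 4), or 2.15-fold, with an adjusted p of 7.73e-05 in limma. The same rise, 1.04 ± 0.13, was seen between Klf3-/- and wild type. Where the cluster's probes lie relative to the deleted part is not known, so this reading goes against the label without settling it. The genotype was not checked otherwise, the groups are called by their labels, and each direction given rests on those labels.

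Klf8, the X-linked repressor that is trapped in both groups, also rose. Its signal was 8.04, 7.35, 6.85 and 6.91 on the double-mutant arrays and 5.48, 5.42, 5.38 and 5.27 on the Klf8-trap arrays. The groups did not overlap, replicate 1 was the highest of the double mutants, and the control mean of 5.39 was under the array medians, so the difference of 1.90 ± 0.20 (adjusted p = 5.65e-05, limma) is given without a fold. The trapped controls read no lower than wild type, whose 4 arrays lay between 5.13 and 5.55. On the intact background Klf8 rose by 3.35 ± 0.22, to between 8.42 and 8.89. The double-mutant level lay 1.42 below the Klf3-/- level (adjusted p = 0.0265, limma). The difference between both Klf3 effects was -1.45 with an interval of -2.08 to -0.82, and did not pass over all clusters (adjusted p = 0.113, limma). It passed in 7 of 29 alternatives, with values from -2.05 to -1.30 and adjusted p from 0.00196 to 0.261. These were the fits without double-mutant replicate 1 or 4 (adjusted p = 0.01 and 0.0401), without Klf8-trap replicate 1 (0.0336), without replicate 1 of both groups (0.00196), with array weights (0.00949), with the hepatocyte marker mean as a covariate (0.00261) and with hepatocyte and macrophage marker means together (0.00491). Among the 17 Kruppel-like factor genes with a cluster, Klf3 and Klf8 rose, 0 fell and 15 did not pass, with a family median of 0.17. Klf1, the erythroid activator of the family, had a difference of -0.33 (adjusted p = 0.107).

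**Figure D1:**
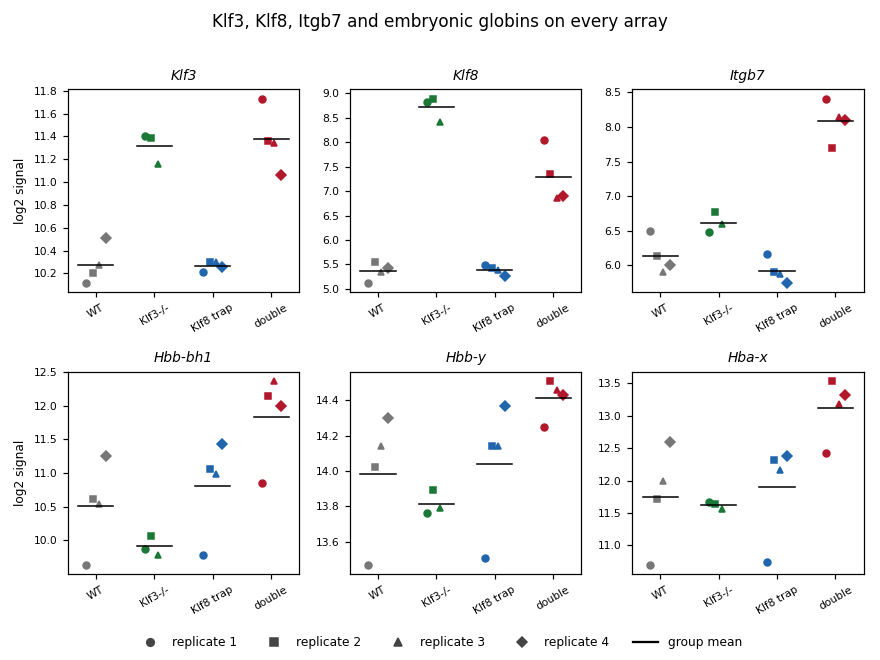
Log2 signal (vertical axes, own scale per gene) of Klf3, Klf8, Itgb7 and 3 embryonic globin genes on each of 15 arrays, by genotype; points are arrays, marked by replicate number, and bars are group means. Klf3 and Klf8 are higher on all double-mutant arrays than on all Klf8-trap arrays, Itgb7 reaches 7.70 or more on double-mutant arrays alone, and the globin values of both groups spread by more than 1 log2 unit for Hbb-bh1 and Hba-x.

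The promoters of both genes are shown because KLF3 and KLF8 bind CACCC elements. They are the 250 bases before a RefSeq start on GRCm38.p6, 5′ to 3′ on the gene's strand, with CACCC or its reverse complement GGGTG in capitals. Klf3 lies on the plus strand at chr5:64803271-64803520 and holds 5 matches. Klf8 is shown on the plus strand at chrX:153359363-153359612, the one of its 2 listed starts with the most matches, 3. Of the 19177 promoters of genes on the array, 0.72% hold 5 or more and 7.91% hold 3 or more.
Klf3: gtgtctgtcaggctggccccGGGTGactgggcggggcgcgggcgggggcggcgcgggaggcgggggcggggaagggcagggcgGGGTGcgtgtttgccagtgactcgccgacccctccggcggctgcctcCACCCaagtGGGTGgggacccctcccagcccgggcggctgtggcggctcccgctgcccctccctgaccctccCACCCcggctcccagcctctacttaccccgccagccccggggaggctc
Klf8: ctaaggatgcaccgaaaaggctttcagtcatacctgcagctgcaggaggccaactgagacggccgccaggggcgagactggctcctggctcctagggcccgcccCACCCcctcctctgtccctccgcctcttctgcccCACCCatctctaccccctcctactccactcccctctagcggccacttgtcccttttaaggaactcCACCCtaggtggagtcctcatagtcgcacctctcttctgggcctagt

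Pqlc3 and Rragd had the largest rises. Pqlc3 encodes a membrane protein of the PQ-loop family, whose members include lysosomal amino acid exporters. It read 12.27, 11.89, 11.86 and 11.20 on the double-mutant arrays and 8.01, 7.79, 7.30 and 7.49 on the Klf8-trap arrays. The groups were separated by more than 3 log2 units, and the difference of 4.16 ± 0.20, or 17.8-fold, had an adjusted p of 2.26e-08 in limma. Rragd encodes RagD, one of the small GTPases that bring mTORC1 to the lysosome when amino acids are present. Its double-mutant values were 11.45, 10.86, 11.13 and 10.40, against 5.98, 7.28, 7.15 and 7.77. Klf8-trap replicate 1 was the lowest of its group, and the difference was 3.92 ± 0.35, or 15.1-fold (adjusted p = 1.03e-05, limma).

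Most partner genes of Rragd did not pass the test, like most of all clusters, of which 3.35% passed. Of 26 measured genes of the Rag GTPases, their lysosomal anchor and the folliculin complex, 2 rose, 1 fell and 23 did not pass, with a median of -0.04. Castor1, the arginine sensor of the pathway, rose by 0.46 ± 0.11 and Lamtor2, a subunit of the anchor, fell by 0.54 ± 0.09. Rragc, the nearest relative of Rragd, had a difference of -0.16 (adjusted p = 0.401), and Rraga, which encodes a partner GTPase, one of -0.26 (adjusted p = 0.199). Among 10 measured PQ-loop and lysosomal transport genes, Pqlc3 and Slc66a2 (0.82 ± 0.16) rose and 8 did not pass. Castor1, Slc66a2 and Lamtor2 lost their calls when only the 8 arrays were fitted (adjusted p = 0.14, 0.10 and 0.0736).

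Both leading genes carry CACCC matches directly before their starts, as do 55.4% of promoters of genes on the array. Rragd, on the plus strand at chr4:32982748-32982997, holds 7, and 0.0678% of the 19177 promoters of genes on the array hold as many or more. Pqlc3, on the minus strand at chr12:17000119-17000368, holds 2, and 23.5% of those promoters hold 2 or more.
Rragd: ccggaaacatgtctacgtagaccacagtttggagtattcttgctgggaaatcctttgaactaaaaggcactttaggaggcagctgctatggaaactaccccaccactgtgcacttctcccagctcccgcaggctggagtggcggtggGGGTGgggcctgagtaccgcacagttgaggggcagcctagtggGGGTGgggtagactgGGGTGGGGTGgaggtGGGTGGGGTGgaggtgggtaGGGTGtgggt
Pqlc3: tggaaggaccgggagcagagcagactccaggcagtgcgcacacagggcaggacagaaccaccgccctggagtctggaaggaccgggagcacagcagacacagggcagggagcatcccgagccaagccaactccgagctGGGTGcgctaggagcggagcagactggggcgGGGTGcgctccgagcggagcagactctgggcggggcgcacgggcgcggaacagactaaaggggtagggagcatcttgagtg

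C1qtnf12 and Lgals3 followed. C1qtnf12 encodes the secreted protein adipolin, a published KLF3 target. Its signal was 10.82, 10.41, 10.06 and 9.88 in the double mutant and lay between 6.91 and 7.04 on the 4 Klf8-trap arrays. The difference was 3.32 ± 0.16 (adjusted p = 2.26e-08, limma), with little spread among controls. Lgals3, which encodes galectin-3, a sugar-binding protein also published as a KLF3 target, read 12.29, 12.06, 11.90 and 10.91 against 8.53 to 8.84, a rise of 3.11 ± 0.23 or 8.64-fold (adjusted p = 1.57e-06, limma). With Klf8 they make up a list of published targets of which 3 of 3 measured members rose. Targets may have been published from these very samples, so that count is not independent evidence of direction. Among 10 galectin genes, Lgals3 and Lgals1 (0.45 ± 0.09) rose, Lgals2, which lay under the array medians in the double mutant, fell by 0.73 ± 0.11, and 7 did not pass. Of 10 genes of the C1q and TNF related family, C1qtnf12 was the single call. Erfe, the erythroid hormone gene of that family, differed by 0.05 (adjusted p = 0.876).

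The Lgals3 promoter, on the plus strand at chr14:47373610-47373859, is shown as that of a published target. It holds 2 matches, and 23.5% of promoters hold 2 or more.
Lgals3: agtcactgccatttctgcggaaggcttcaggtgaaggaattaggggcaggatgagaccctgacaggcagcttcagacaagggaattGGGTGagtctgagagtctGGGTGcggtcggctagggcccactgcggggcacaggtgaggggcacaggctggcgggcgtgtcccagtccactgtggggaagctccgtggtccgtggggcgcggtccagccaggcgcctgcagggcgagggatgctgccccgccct

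S100a10 encodes a subunit of the complex with annexin A2 that binds plasminogen at the cell surface. It read 12.08, 12.09, 11.99 and 11.72 on the double-mutant arrays against 9.07, 9.72, 9.82 and 9.98. The groups lay far apart, and the difference of 2.32 ± 0.17 was 4.99-fold. Of 17 S100 and annexin genes, S100a10, Anxa5 (1.14 ± 0.14) and Anxa7 (0.52 ± 0.11) rose, 0 fell and 14 did not pass, with a median of 0.20. Anxa2, the partner of S100a10, had a difference of 0.59 (adjusted p = 0.0694). Anxa7 lost its call with same-numbered arrays as pairs (adjusted p = 0.0614) and Lgals1 likewise (adjusted p = 0.0724).

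Kdelr3 encodes a receptor that returns resident proteins to the endoplasmic reticulum. Its values were 9.54, 9.21, 8.94 and 8.57 against 5.67 to 6.02 in the Klf8 trap, below the array medians, and the difference was 3.20 ± 0.17 (adjusted p = 3.95e-08, limma). Kdelr1, the family's widely expressed member, had a difference of -0.30 (adjusted p = 0.35). Of 14 genes of endoplasmic reticulum retention and folding Kdelr3 alone passed, where 3.35% of all clusters did. The chaperone genes Hspa5 and Calr on that list had differences of -0.21 and -0.17.

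Spi1 encodes PU.1, the transcription factor that drives myeloid and B cell fates and opposes GATA1. It was 10.68, 10.18, 10.13 and 9.69 on the double-mutant arrays and 7.93, 7.47, 7.59 and 7.73 on the Klf8-trap arrays, a rise of 2.49 ± 0.18 or 5.61-fold (adjusted p = 1.57e-06, limma). The groups were separated by more than 1 log2 unit. Of 19 measured PU.1 and myeloid regulators, Spi1 and Csf3r (0.53 ± 0.09, under the array medians) rose and 17 did not pass, with a median of 0.03. Csf1r and Irf8, genes that PU.1 is known to activate in myeloid cells, had differences of -0.23 and 0.18 (adjusted p = 0.789 and 0.556). Among 16 granulocyte and myeloid markers 1 passed, again Csf3r, and Mpo differed by 0.93 (adjusted p = 0.136). The mean of that marker list was 6.09 to 6.63 on double-mutant and 6.05 to 6.17 on Klf8-trap arrays, with 9 of 16 markers under the array medians in both groups.

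The remaining genes among the 15 largest rises have no function in common. Supt3, a subunit gene of the SAGA coactivator complex, rose by 3.06 ± 0.28, and Cttnbp2nl, which encodes a cortactin-binding scaffold, by 2.65 ± 0.25. Dffb, the gene of the nuclease that cuts DNA in apoptosis, rose by 2.22 ± 0.20, from 6.72 to 6.99 on the Klf8-trap arrays to 9.70, 9.27, 8.83 and 8.41. Its inhibitor gene Dffa had a difference of -0.01. Atl1, which encodes a GTPase that shapes the endoplasmic reticulum, rose by 2.43 ± 0.21, Prune2 by 2.54 ± 0.19, Dkkl1 by 2.56 ± 0.20 and Hydin, a gene of motile cilia, by 2.46 ± 0.19. A second, dimmer Prune2 cluster differed by 0.14 (adjusted p = 0.588). Cyp4f39, a fatty acid hydroxylase gene of the skin barrier, rose by 2.49 ± 0.30 from under the array medians and had the widest spread of the 15, at 8.87, 7.66, 8.62 and 6.94.

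The 15 rises varied among the double mutants in a shared way. Replicate 1 was the highest double-mutant array for 14 of the 15 genes and replicate 4 the lowest for 15 of 15, with means over the genes of 10.46, 9.996, 9.92 and 9.23 for replicates 1 to 4. Klf8-trap replicates had no such order, with means of 6.98 to 7.12. Beside these values, the erythroid marker mean was 12.77 on double-mutant replicate 1 and 12.46 on replicate 4, and the macrophage marker mean was 7.88 and 9.24. The 15 rises passed the test in each alternative run, including those without either array, and with the macrophage marker mean as a covariate their differences were 1.75 to 3.88.

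**Figure D2:**
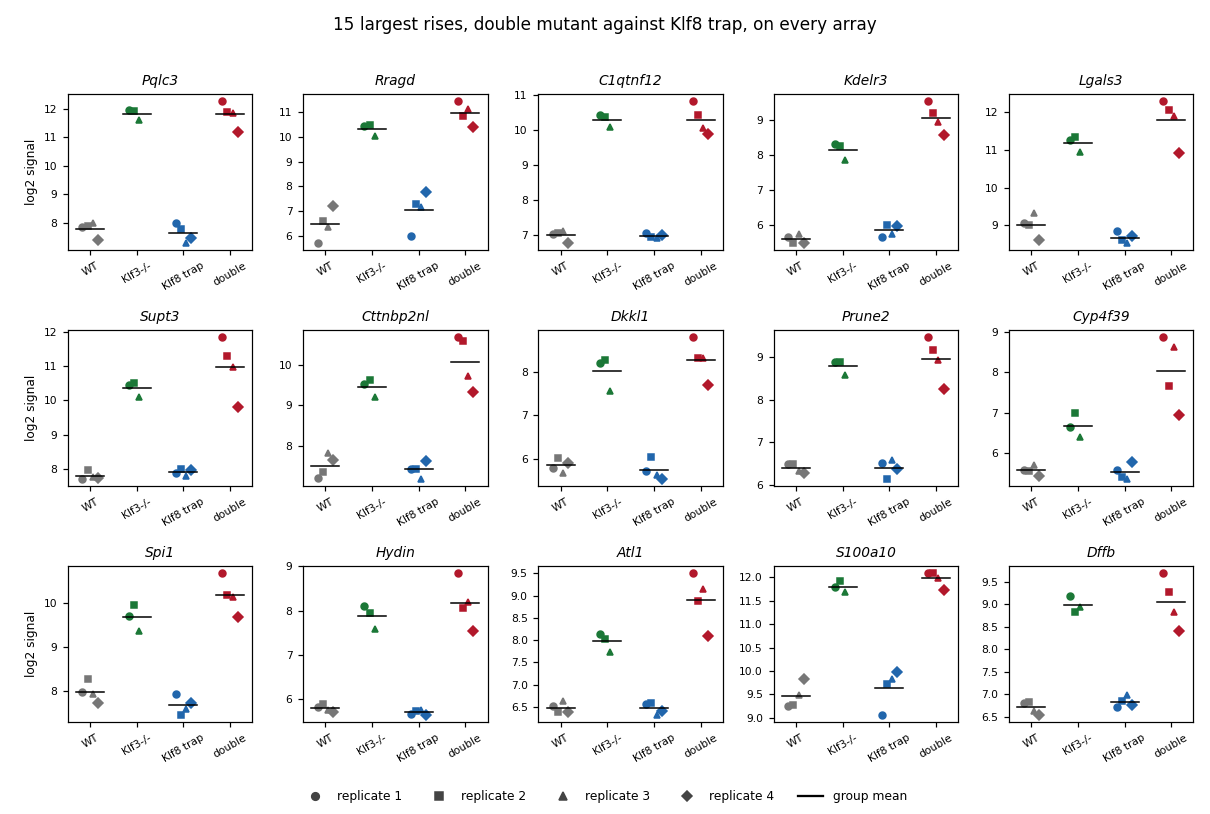
Log2 signal (vertical axes, own scale per gene) of the 15 genes with the largest rises between double-mutant and Klf8-trap arrays, on each of 15 arrays by genotype; points are arrays, marked by replicate number, and bars are group means. Double-mutant replicate 4 is the lowest of its group in all 15 panels and still above every Klf8-trap array.

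CACCC matches in promoters were counted over the genes that moved. Within the 250 bases before a start, CACCC on either strand was present in 68.5% of 302 promoters of genes called higher (225 of 304 genes had one), 52.5% of 434 promoters of genes called lower (340 of 417) and 55.4% of 19177 promoters of genes on the array. For the longer CACACCC, which contains CACCC, the shares were 10.9%, 6.68% and 7.41%. CCGCCC, a GC box element, was present in 61.9%, 40.8% and 45.5%, and the GATA motif AGATAA in 7.28%, 10.8% and 8.45%, both strands counted. The median GC content of the same windows was 59.6% for genes called higher, 55.6% for genes called lower and 56.8% for genes on the array, and its part in these shares was not tested. Among the 15 largest rises, 10 of 13 listed promoters held CACCC (76.9%). Cttnbp2nl and Cyp4f39 held 0 matches, and Supt3, Dkkl1, Hydin, Atl1 and Dffb 1 each. No promoter was listed for C1qtnf12, Spi1 and S100a10. The shares are descriptions.

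The same loss of Klf3 on the Klf8-intact background called fewer clusters. Klf3-/- against wild type gave 137 calls (0.585% of clusters), 122 higher (0.521%) and 15 lower (0.0641%), with 3 arrays against 4. That count was 61 without Klf3-/- replicate 1, 65 without Klf3-/- replicate 2, 89 without wild-type replicate 2 or 3, and 597 with array weights. Of these 122 rises, 105 were also called higher on the trapped background, which is 86.1% of the 122 and 30.3% of the 347. The 122 had a median of 1.03 on both backgrounds, and 121 of them had a positive difference on the trapped one. Over all 23410 clusters the differences on both backgrounds had a Pearson correlation of 0.163 and a Spearman correlation of -0.111. The 347 had a median of 0.70 on the trapped background and of 0.42 on the intact one, where 281 were higher and 66 lower. Each set was chosen by its calls on one background, so its values there are a description. Both comparisons use the spread estimated over all 15 arrays, so their calls, rises and falls alike, are not independent. Of the 15 largest rises on the trapped background, 14 were called on the intact one, all but Cyp4f39 (1.11 ± 0.33, adjusted p = 0.257).

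Of the 438 lower clusters, 10 were among the 15 called lower in Klf3-/- against wild type, which is 2.28% of the 438 and 66.7% of the 15. The 438 had a median of -0.62 on the trapped background and of -0.03 on the intact one, where 245 were lower and 193 higher. The 15 falls of the intact background had a median of -0.80 there and of -0.54 on the trapped one, where 14 of them were lower. The difference between both Klf3 effects was tested for each cluster by the interaction contrast of the same model. In that contrast 1 cluster passed (0.00427% of all). An unadjusted p under 0.05 was found for 3378 clusters (14.4%), 307 of them among the 438 falls and 145 among the 347 rises. Both sets were chosen by a difference that is itself a term of the interaction. Their shares are raised by that choice and are no evidence that the effects differ. The number past the threshold depended on single arrays. It was 718 without Klf8-trap replicate 1, 386 without double-mutant replicate 4, 32 without double-mutant replicate 2 and 2 without double-mutant replicate 1 or wild-type replicate 1. It was 0 without double-mutant replicate 3, Klf8-trap replicate 2, 3 or 4, any one Klf3-/- array, or wild-type replicate 2 or 4. Array weights gave 1183 and the replicate block 13.

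**Figure D3:**
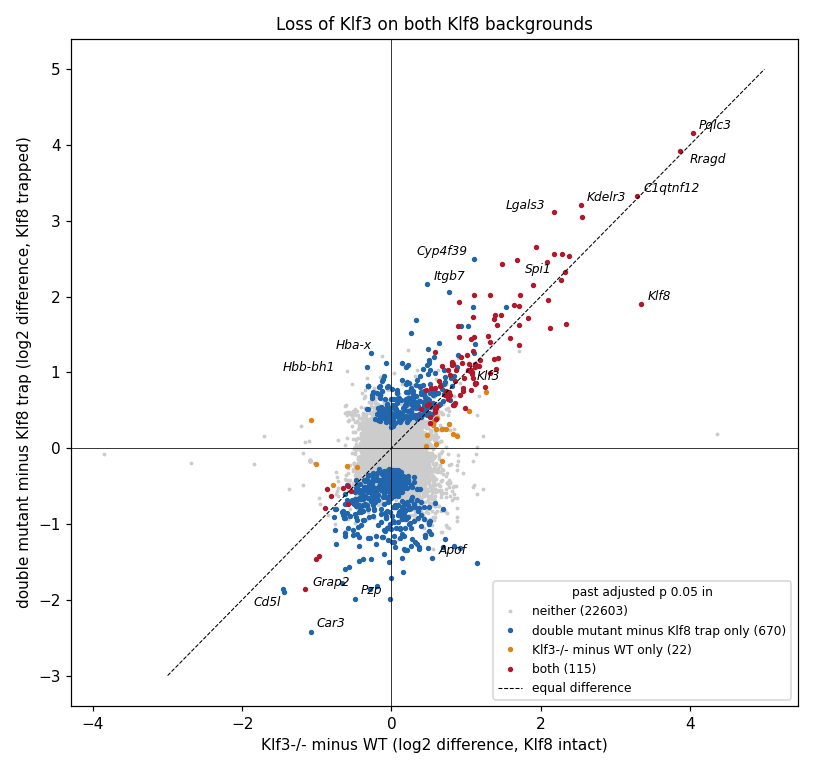
Log2 difference between double-mutant and Klf8-trap arrays (vertical axis) against that between Klf3-/- and wild-type arrays (horizontal axis) for 23410 transcript clusters, coloured by the comparison in which the adjusted p was under 0.05; the dashed line marks equal differences. Rises called in both scatter about the line, Klf8 lies below it and Itgb7 above, and most falls called on the trapped background lie near 0 on the horizontal axis.

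That cluster was Itgb7, the gene of the integrin beta chain that pairs with alpha 4 or alpha E in lymphocyte homing. It read 8.41, 7.70, 8.14 and 8.10 on the double-mutant arrays and 6.16, 5.91, 5.87 and 5.75 on the Klf8-trap arrays, a rise of 2.16 ± 0.15 (adjusted p = 1.18e-06, limma) from under the array medians. On the intact background the Klf3-/- arrays read 6.48 to 6.77 and wild type 5.91 to 6.49. The rise there was 0.48 ± 0.16 (adjusted p = 0.397). The interaction was 1.68 with an adjusted p of 0.0311 in limma, and it passed in 15 of 29 alternatives, with values from 1.38 to 1.81 and adjusted p from 0.00196 to 0.214. It missed the threshold without Klf3-/- replicate 1, 2 or 3 (adjusted p = 0.214, 0.0527 and 0.0708), without Klf8-trap replicate 2, 3 or 4 (0.114, 0.123 and 0.118), without double-mutant replicate 3 (0.0953) and without wild-type replicate 2 or 4 (0.112 and 0.0721). A sex covariate gave 0.0563, and a fit that included rows without a symbol gave 0.123. Macrophage, hepatocyte and megakaryocyte marker means as single covariates gave 0.0614, 0.0588 and 0.193. Of 25 integrin and adhesion genes, Itgb7 rose, Vcam1 fell and 23 did not pass. Itga4 and Itgae, the genes of its partner chains, had differences of 0.11 and -0.01.

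The Itgb7 promoter, on the minus strand at chr15:102231936-102232185, is shown as that of the only gene past the threshold in the interaction test. It holds 4 CACCC matches, and 2.37% of promoters hold 4 or more.
Itgb7: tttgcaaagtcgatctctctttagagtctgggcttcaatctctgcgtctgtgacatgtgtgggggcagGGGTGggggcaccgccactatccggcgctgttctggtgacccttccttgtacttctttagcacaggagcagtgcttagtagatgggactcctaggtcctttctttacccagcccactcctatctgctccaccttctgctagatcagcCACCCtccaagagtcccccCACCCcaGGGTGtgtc

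Embryonic globin genes were higher on average without passing the limma test. Hbb-bh1, an embryonic beta-type globin, read 10.85, 12.15, 12.37 and 11.99 on the double-mutant arrays and 9.78, 11.06, 10.99 and 11.43 on the Klf8-trap arrays, a difference of 1.02 ± 0.38 (adjusted p = 0.153). The groups overlapped, and in each group replicate 1 was lowest. Hba-x, the embryonic alpha-type globin, read 12.42, 13.54, 13.18 and 13.32 against 10.74, 12.31, 12.17 and 12.38, a difference of 1.21 ± 0.38 (adjusted p = 0.0974) with no overlap. With same-numbered arrays as pairs within the 8 arrays, both passed (adjusted p = 0.00754 for Hbb-bh1 and 0.00371 for Hba-x, limma). Hbb-y differed by 0.38 ± 0.17 (adjusted p = 0.266) near the top of the signal range, and Hbb-bh2 by 0.38 ± 0.13 (adjusted p = 0.128) under or near the array medians.

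On the intact background the differences were negative for these genes, -0.60 for Hbb-bh1 and -0.13 for Hba-x, and neither passed (adjusted p = 0.764 and 0.955). The interaction did not pass either (adjusted p = 0.223 and 0.302). An exact two-sided permutation test over the 8 arrays gave p = 0.0286 for Klf3, Klf8 and Hba-x, the smallest value that 70 splits allow, 0.114 for Hbb-bh1 and 0.0571 for Hbb-y and Hbb-bh2. Adjusted over these 6 tests, the values were 0.0571, 0.114 and 0.0686. Adult globin genes are not reported because their clusters name several genes each. Of 15 measured globin switching repressors, among them Bcl11a (-0.05) and Sox6 (-0.23), 0 passed, with a median of 0.02.

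Few genes of the erythroid programme passed the test, as did few of all clusters (3.35%). No erythroid list with a call had a smaller share than that. More genes passed with the hepatocyte marker mean as a covariate, as did more of all clusters. Of 26 erythroid transcription factor genes, 1 passed. Ldb1, which encodes the protein that bridges GATA1 and TAL1 complexes, read 10.84, 10.87, 10.68 and 10.83 against 10.16, 10.19, 10.28 and 10.15, a rise of 0.61 ± 0.07 or 1.52-fold (adjusted p = 0.000151, limma). Its values were tight in both groups, and it passed in all 24 alternatives. Gata1 and Tal1 had differences of -0.39 and -0.38 (adjusted p = 0.169 and 0.177). Among 15 measured genes that KLF1 is known to activate, Aqp1, a water channel gene, fell by 0.49 ± 0.12 (adjusted p = 0.0417) and 14 did not pass. Of 28 genes of haem synthesis and iron handling, Steap3, the ferrireductase gene of the transferrin cycle, rose by 0.43 ± 0.11 (adjusted p = 0.0425) and 27 did not pass. Both lost their calls with same-numbered arrays as pairs (adjusted p = 0.0664 and 0.0756). In that fit 1 other haem or iron gene was called lower, as was 1 erythroid transcription factor gene beside the rise of Ldb1.

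Of 26 red cell membrane and skeleton genes, Aqp1 and the urea transporter gene Slc14a1, which fell by 0.67 ± 0.17, were called and 24 did not pass. Late maturation genes included 3 falls among 21. Ypel4 fell by 1.04 ± 0.24 and Dcaf12, a ubiquitin ligase adaptor gene, by 0.74 ± 0.18, and the scavenger receptor gene Cd36 fell by 1.08 ± 0.26 with overlapping arrays and lost its call with paired arrays (adjusted p = 0.0608). The median of that list was -0.26. Ypel4 and Dcaf12 were lowest on double-mutant replicate 4 (9.92 and 10.51). Each of the 3 missed the threshold when only the 8 arrays were fitted (adjusted p = 0.172, 0.172 and 0.15). Of 34 cell cycle and replication genes, 0 passed, and the median was -0.08.

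The counts in these erythroid lists were larger with the hepatocyte marker mean as a covariate, an alternative chosen after the data were seen. Calls over all 23410 clusters were more as well, 1349 with 817 lower, against 785 with 438 lower in the main fit. The hepatocyte covariate called 7 of 26 transcription factor genes, of which 6 were lower, and 5 of 15 KLF1-activated genes, all lower. Of 28 haem and iron genes 5 were lower, and of 26 membrane and skeleton genes 8 were lower. Late maturation genes gave 9 falls and 1 rise of 21, with a median of -0.56, and the erythroid markers 6 falls and 1 rise of 12, with a median of -0.34. With hepatocyte and macrophage marker means together the falls were 6, 3, 2, 4, 9 and 5 in these lists, in the same order. That fit called 759 clusters, 423 of them lower. The hepatocyte mean was itself lower on average in the double mutant than in the Klf8 trap.

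Pik3r1 was the strongest change in erythropoietin receptor signalling. It encodes p85 alpha, the regulatory subunit of PI3-kinase. The double-mutant arrays read 8.72, 8.58, 8.56 and 8.50 and the Klf8-trap arrays 10.40, 9.82, 9.76 and 10.08. The groups were more than 1 log2 unit apart, and the fall of 1.43 ± 0.14, or 2.69-fold, had an adjusted p of 3.90e-05 in limma. It fell by 0.97 ± 0.16 on the intact background (adjusted p = 0.00576). Of 25 genes in that list, Trib3, a pseudokinase gene of the stress response, rose by 0.66 ± 0.14, and 23 did not pass, among them Epor (-0.07) and Jak2 (-0.37). Trib3 was also the single call among 22 genes of the integrated stress response, and it lost that call with paired arrays (adjusted p = 0.0586).

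Several signalling genes better known from lymphoid cells fell. Grap2 encodes GADS, an adaptor between the T cell receptor scaffold and its kinases. It read 9.30, 9.05, 8.25 and 8.48 against 10.92, 10.56, 10.47 and 10.56, a fall of 1.85 ± 0.19 or 3.62-fold (adjusted p = 4.65e-05, limma). No array of the groups overlapped, and Grap2 fell by 1.16 ± 0.21 on the intact background (adjusted p = 0.0128). Septin1 fell by 1.46 ± 0.20 here and by 1.01 ± 0.21 there (adjusted p = 0.0476). Asb2, a ubiquitin ligase adaptor gene, fell by 0.63 ± 0.12, and Blnk, a B cell adaptor gene under the array medians, by 0.48 ± 0.10. Of 24 such adaptor and kinase genes these 4 fell, 0 rose and 20 did not pass, with a median of -0.23. Prokr1, the gene of a prokineticin receptor, fell by 1.57 ± 0.23, from 8.69 to 9.57 on the Klf8-trap arrays to 8.22, 7.29, 7.06 and 7.16.

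Among 27 p53 targets and apoptosis genes, Dffb rose, 3 fell and 23 did not pass. Phlda3, which encodes an inhibitor of AKT, fell by 1.15 ± 0.15 from 7.56 to 8.33 to values between 6.56 and 6.87, and Ccng1, the cyclin G1 gene, fell by 0.62 ± 0.13. Eda2r was lower as well, under the lower quartile of the arrays in the double mutant, so no size is given, and it lost its call with paired arrays (adjusted p = 0.0721). Mdm2, the main feedback gene of p53, had a difference of -0.07 (adjusted p = 0.629).

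Liver-type genes formed the larger share of the strongest falls. Of the 15 genes with the largest falls, 10 belong to hepatocyte metabolism or plasma proteins, a grouping made after their values were seen. Car3, a carbonic anhydrase gene, read 7.82, 9.40, 8.01 and 8.03 on the double-mutant arrays and 10.03, 10.97, 10.78 and 11.18 on the Klf8-trap arrays. Double-mutant replicate 2 was the highest of its group, no array overlapped, and the fall was 2.42 ± 0.33 or 5.37-fold (adjusted p = 0.000552, limma). Pzp, a plasma protease inhibitor gene, fell by 1.99 ± 0.27 and F13b, the gene of a clotting factor subunit, fell by 1.99 ± 0.26. The complement gene C8b fell by 1.64 ± 0.26, and Fabp1, the liver fatty acid carrier gene, was 2.82-fold lower (adjusted p = 0.00134). The differences of Ces1d, Ugt2b36, Mat1a and Apof were -1.82, -1.71, -1.46 and -1.45, and Cyp3a16 fell to under the lower quartile.

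In these 10 genes the Klf8-trap mean was above wild type by 0.77 to 1.28 and the double-mutant mean was below it, with log2 differences of -1.15 to -0.53. Klf3-/- against wild type called 0 of the 10, with differences from -1.08 to 0.55. The mean over the 10 genes was 7.99, 9.14, 8.72 and 9.12 for Klf8-trap replicates 1 to 4 and 6.39, 7.52, 6.94 and 6.99 for double-mutant replicates 1 to 4. In each group replicate 1 was the lowest.

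Hepatocyte markers, none of them among those 10, had negative differences in 16 of 17 cases. Of the 17, Ahsg fell by 1.10 ± 0.26 and Apoh by 1.35 ± 0.29, 0 rose and 15 did not pass, with a median of -0.54. With same-numbered arrays as pairs within the 8 arrays, 7 of the 17 were called lower. The count was 7 without Klf8-trap replicate 1, 5 without double-mutant replicate 4, 1 without Klf8-trap replicate 3 and 0 without Klf8-trap replicate 2 or 4. Alb and Afp, the defining genes, had differences of -0.21 and -0.20 (adjusted p = 0.307 and 0.33). The mean of the list was 10.76, 11.82, 11.90 and 11.92 on the double-mutant arrays, 11.70, 12.42, 12.25 and 12.24 on the Klf8-trap arrays and 11.34 to 11.77 on wild-type arrays. With that mean as a covariate, 9 of the 10 liver-type falls still passed, with differences of -1.95 to -0.88, and Ugt2b36 did not (adjusted p = 0.0613).

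**Figure D4:**
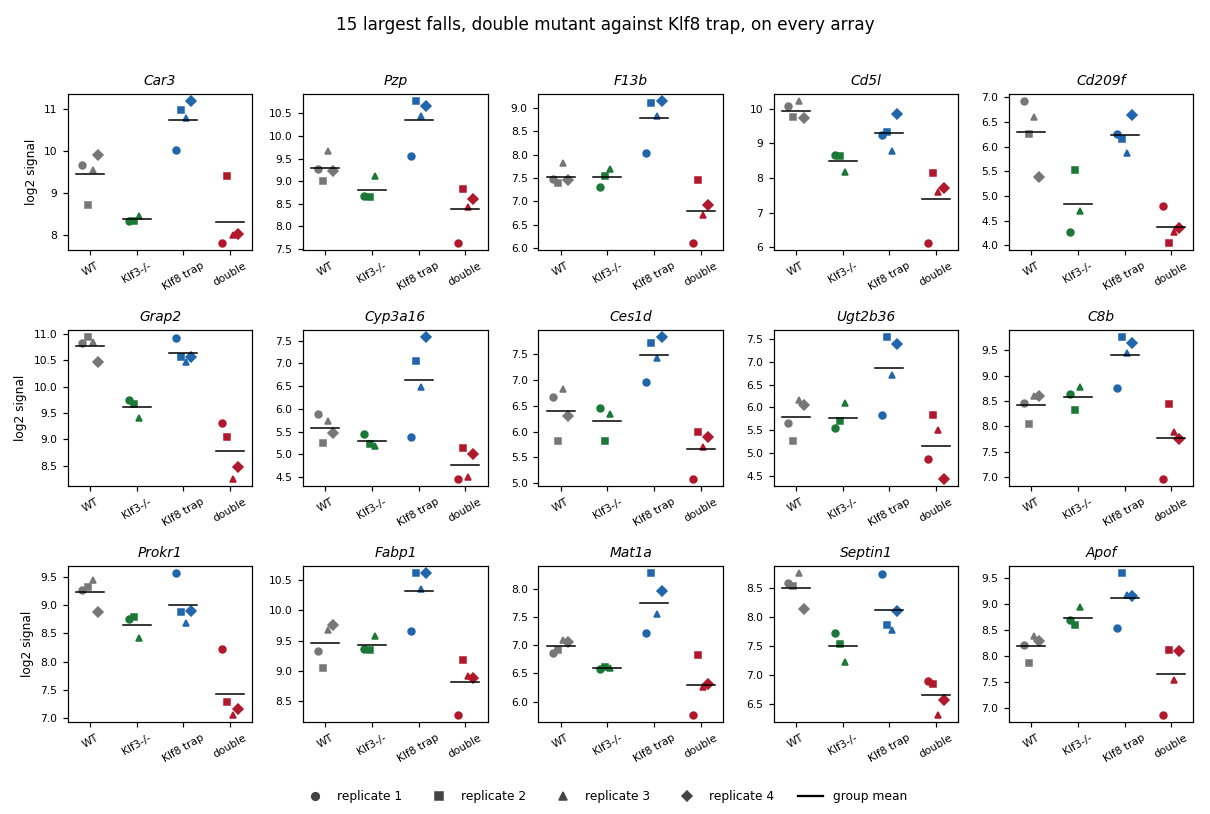
Log2 signal (vertical axes, own scale per gene) of the 15 genes with the largest falls between double-mutant and Klf8-trap arrays, on each of 15 arrays by genotype; points are arrays, marked by replicate number, and bars are group means. Liver-type genes such as Pzp, F13b and C8b are higher in the Klf8 trap than in wild type, whereas Grap2, Septin1 and Cd5l are not.

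Macrophage markers had negative differences in 20 of 21 cases, and 3 of them passed. Cd5l, a secreted macrophage protein gene, read 6.13, 8.14, 7.61 and 7.73 on the double-mutant arrays and 9.24, 9.33, 8.77 and 9.86 on the Klf8-trap arrays, a fall of 1.90 ± 0.33 or 3.72-fold (adjusted p = 0.00444, limma). Double-mutant replicate 1 was the lowest by more than 1 log2 unit. The scavenger receptor gene Marco fell by 1.26 ± 0.26 and Vcam1, the adhesion gene of the central macrophage, by 1.16 ± 0.26, and Cd209f fell to under the lower quartile. Cd5l, Marco and Vcam1 are the 3 markers that fell, 0 rose and 18 did not pass, with a median of -0.70 (-0.003 over all clusters). Without double-mutant replicate 4, whose macrophage markers were the highest of its group, 14 of the 21 were called lower, with a sex covariate 8, and without Klf8-trap replicate 2 or 4 only 1. The 8 arrays alone called 0. Timd4 had a difference of -1.10 (adjusted p = 0.0869), and Adgre1, which encodes F4/80, did not pass either (adjusted p = 0.0942).

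The mean of the macrophage list was 7.88, 8.62, 8.48 and 9.24 on the double-mutant arrays and 9.20, 9.23, 8.97 and 9.51 on the Klf8-trap arrays, so it was low on 3 of 4 double-mutant arrays. On wild-type arrays it was 9.42 to 9.74 and on Klf3-/- arrays 8.88 to 9.36. With that mean as a covariate the calls were 183, of which 127 were higher and 56 lower, and 5 of the 10 liver-type falls no longer passed, with differences of -2.24 to -1.01 over the 10. Ugt2b36, one of those lost, kept a difference of -1.77 against -1.71 without the covariate. Cd209f did not pass then either (adjusted p = 0.0579), with a difference of -1.78 against -1.86, and Cd5l, itself a marker in the mean, had one of -1.03 (adjusted p = 0.103). Grap2, Septin1, Prokr1 and Pik3r1 passed. With hepatocyte and macrophage means together as covariates there were 759 calls, 336 higher and 423 lower, and 9 of the 10 liver-type falls and Cd209f (adjusted p = 0.00925) passed.

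**Figure D5:**
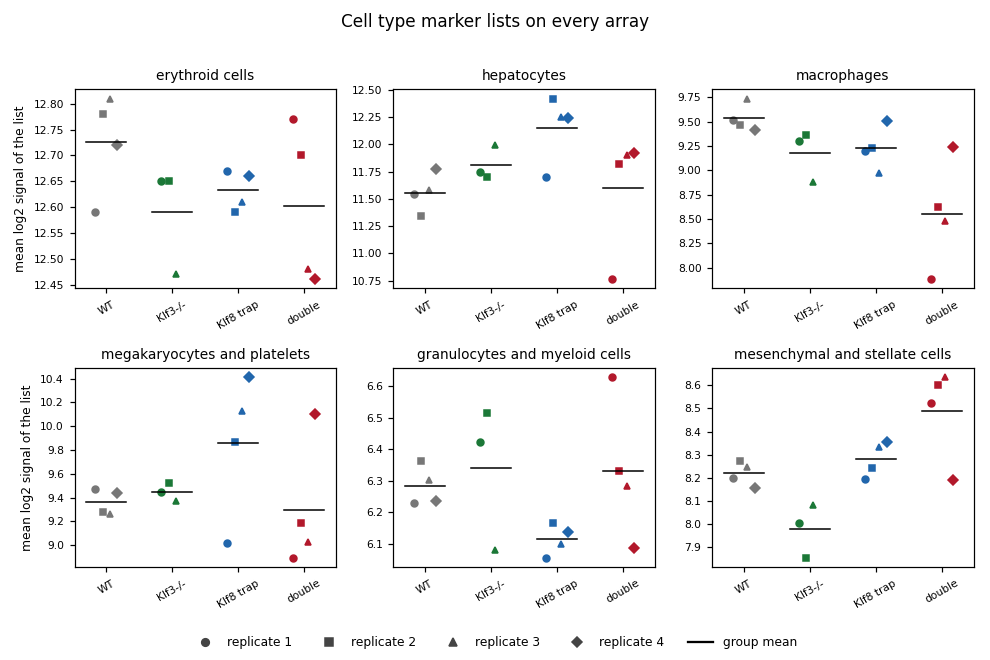
Mean log2 signal (vertical axes, own scale per list) of 6 cell type marker lists on each of 15 arrays by genotype; points are arrays, marked by replicate number, and bars are group means. The erythroid means span 12.46 to 12.81 over all arrays, while hepatocyte and macrophage means are lowest on double-mutant replicate 1 and megakaryocyte means range from 9.02 to 10.41 within the Klf8 trap.

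Other cell type markers were mixed. Megakaryocyte markers, such as Pf4 (-0.90, adjusted p = 0.193), had a median of -0.76, and 0 of 10 passed. Their mean ran from 9.02 to 10.41 on the Klf8-trap and from 8.89 to 10.10 on the double-mutant arrays. Among the mesenchymal markers, 3 collagen genes rose. Col1a1 read 10.60, 10.25, 11.13 and 10.28 against 9.63, 9.47, 9.83 and 9.79, a rise of 0.88 ± 0.17 (adjusted p = 0.00745, limma), and Col1a2 and Col6a1 rose by 0.57 ± 0.13 and 0.49 ± 0.11. These were 3 calls of 11 measured markers, with a median of 0.13. Col1a2 and Col6a1 lost their calls with paired arrays (adjusted p = 0.0567 and 0.0867). The list means were 8.19 to 8.63 and 8.19 to 8.36. Of 12 endothelial and 15 lymphoid and mast cell markers 0 passed, and of 11 progenitor markers Mecom fell by 0.83 ± 0.17 at one cluster (adjusted p = 0.0131) and differed by -0.13 at another (adjusted p = 0.482). That fall of Mecom did not pass with paired arrays (adjusted p = 0.0541).

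Pfkp, a platelet-type phosphofructokinase gene, read 9.01, 11.12, 8.67 and 9.35 on the double-mutant arrays and 7.06, 7.88, 7.70 and 8.05 on the Klf8-trap arrays, a rise of 1.86 ± 0.38 or 3.64-fold (adjusted p = 0.0128, limma). Replicate 2 was far above the other double mutants. It was the single call among 16 red cell glycolysis genes, and Pfkm and Pfkl, the other subunit genes, had differences of -0.40 and 0.35 (adjusted p = 0.0814 and 0.396). Aqp9, a glycerol channel gene, fell by 1.06 ± 0.20, and of 11 aquaporin genes it and Aqp1 were the calls. In fatty acid metabolism, Plin2, which coats lipid droplets, fell by 0.62 ± 0.09, Plaat3 by 1.16 ± 0.28, Cd36 by 1.08 and Acadvl, a beta-oxidation gene, by 0.39 ± 0.08, while Cyp4f39 rose, and 18 of 23 did not pass. Acadvl lost its call with paired arrays (adjusted p = 0.0635).

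The remaining lists held few calls, and few of all clusters (3.35%) were called. Of 15 measured genes of the CtBP complex and KLF3 partners 0 passed, with Ctbp1 at 0.34 (adjusted p = 0.103) and Ctbp2 at 0.16 (adjusted p = 0.349). Of 14 measured genes listed as next to Klf3, whose positions were not checked, Tlr6 fell by 0.71 ± 0.15, under the array medians, and 13 did not pass. Dnaja4, a co-chaperone gene, fell by 0.79 ± 0.16 as the single call of 14 chaperone genes, and by 0.89 ± 0.17 on the intact background (adjusted p = 0.0217). Interferon response genes gave 0 calls of 24, with a median of -0.17, and 3 falls with same-numbered arrays as pairs. Without double-mutant replicate 4 there were 3 rises and 1 fall.

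Many of the smaller calls rested on the spread estimated over all 15 arrays. Mean correlations with the own group were 0.9857 to 0.9897 for the double mutant and 0.9884 to 0.9942 for the Klf8 trap. They were 0.9952 to 0.9961 for Klf3-/- and 0.9946 to 0.9957 for wild type. The shared spread therefore draws on groups that were more alike within themselves than those compared. Of 70 named genes past the threshold, 34 did not pass when the 8 arrays were fitted alone, with unchanged differences. They were 4 of the 15 largest falls (Cd5l, Cyp3a16, Ugt2b36 and Apof) and list members, among them the 3 macrophage markers, Ahsg, Apoh, the 3 collagen genes, Pfkp, Dnaja4, Tlr6, Slc14a1, Aqp1, Steap3, Trib3, Ccng1, Blnk, Asb2 and Csf3r. The 15 largest rises, Klf3, Klf8, Itgb7, Ldb1, Anxa5, Pik3r1, Grap2, Septin1 and Phlda3 passed in that fit.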

How the data were processed

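The deposited table holds log2 signals, 1 per transcript cluster and array, for 15 mouse arrays. The submitters' processing notes name RMA and Partek, with no version, so the authors' background correction and normalization are those of RMA. No build of the platform is given in the sources used here. Arrays carry no depth, and their number limits the precision. All 15 columns belonged to samples of the study, and no pair of arrays was identical.

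Of 35556 clusters, 21789 carried 1 symbol in the annotation of the platform, 1621 several and 12146 none. Gene identifiers of 21698 clusters matched GRCm38.p6, which changed 0 symbols. The 23410 clusters with a symbol, standing for 19938 genes by single symbols, were tested with no filter. limma 3.58.1 in R 4.3.3 fitted 1 mean per genotype to all 15 arrays as deposited, with eBayes without trend (4.27 prior and 11 residual degrees of freedom). Tests were two-sided and Benjamini-Hochberg adjusted over all clusters at 0.05. Intervals are 95% intervals. The procedure was tested on simulated data. Klf3, Klf8 and 4 embryonic globins were also tested by exact permutation.

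The members and the 41 gene lists (681 genes, 614 measured) were chosen with earlier results of these data known. Lists are described by counts and medians, to be read beside the 3.35% of all clusters called. Named were Klf3, Klf8, the embryonic globins, each list member past the threshold, each gene past the interaction test and, per direction, the 15 largest differences among single-symbol calls whose arrays did not overlap. Predicted genes, Riken clones, microRNA and snoRNA genes were skipped. A gene with several clusters is represented by the brightest.

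The labels do not say that same-numbered arrays are pairs, so the pairing is an assumption. Judged by the Y-linked genes and Xist, the arrays of pairs 1 and 3 were of opposite sex. Deviations from the group means correlated by 0.534, 0.114, 0.158 and 0.18 for pairs 1 to 4, and the mean of 0.247 was the highest of 24 matchings.

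Promoters, 250 bases before each start, came from RefSeq for 15614 genes. Alternatives were the 8 arrays alone, the replicate block, quantile normalization, median centring, a filter on low values, all rows, single-symbol rows, a trend with robust prior, array weights, covariates for sex and for marker means (hepatocyte and megakaryocyte ones added after seeing the data), and leaving out arrays.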

Additional observations from a re-analysis of the deposited data

Results flagged for a closer look

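Within groups of 4, the gap of the highest or lowest array to its nearest neighbour exceeded Dixon's 95% critical value as a share of the group's range, in 6 of 148 groups examined. Chance alone gives about 1 in 20. Klf8-trap replicate 1 was the lowest of its group for Hba-x, the embryonic alpha-type globin gene, at 10.74 against 12.17 to 12.38. The same array was the highest for Dcaf12 at 12.06 against 11.54, for Asb2 at 7.59 against 7.20 to 7.26 and for Plin2 at 11.96 against 11.61 to 11.64. Klf8-trap replicate 4 was the highest for Blnk, at 5.94, with the other three alike to 2 decimals. Double-mutant replicate 2 was the highest for Car3, at 9.40 against 7.82 to 8.03, and that is the array nearest to the Klf8-trap values of Car3.

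The effect of Klf3 loss on Itgb7, an integrin beta chain gene, differed between backgrounds by 1.68 on the log2 scale (limma interaction, adjusted p = 0.0311). All 4 double-mutant arrays were above all 3 Klf3-/- arrays. In the alternatives the adjusted p ran from 0.00196 to 0.214.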

How the results depend on the processing

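All 8 arrays alone gave 188 calls, 132 higher and 56 lower, against 785, 347 and 438 with the spread of 15 arrays. The replicate block moved the higher calls to 229 within the 8 arrays, and the interaction to 13 over all 15. Array weights gave 1280 calls, 817 lower, 1183 in the interaction and 597 for Klf3-/- against wild type. Without replicate 1 of both groups there were 1245 calls, 833 lower, with 746 and 296 in those other tests. The macrophage covariate gave 183 calls (127 higher, 56 lower) and 0 in the interaction, as did all rows and the sex covariate. Covariates chosen after seeing the data gave 1349 calls (532 higher, 817 lower; interaction 4; Klf3-/- 219) for hepatocyte markers, an interaction of 25 for hepatocyte and macrophage markers together, and 273 lower and an interaction of 0 for megakaryocyte markers. Leaving out single arrays gave 393 to 1777 calls, 222 to 620 higher, 164 to 1200 lower, 0 to 718 in the interaction and 61 to 103 for Klf3-/- against wild type. The causes were not tested. Of 70 named genes past the threshold, 32 passed in each alternative run, among them 15 of the 15 largest rises and 8 of the 15 largest falls, and 0 reversed. The 8 arrays alone lost 34 of the 70 and the macrophage covariate 35. The replicate block of 8 arrays lost 11, each given above, and added Hbb-bh1 and Hba-x, and it changed no other call of a named gene. The platform gives no detection call, so signals under the array medians set no fold.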

Other observations

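Genes outside the lists, chosen after their values were seen, add to the rises. Genes of the actin and tubulin cytoskeleton were among them. Capg, which encodes an actin-capping protein, read 9.18, 9.18, 9.22 and 9.68 on the double-mutant arrays and 7.07 to 7.53 on the Klf8-trap arrays, a difference of 2.02 ± 0.14 (adjusted p = 1.18e-06, limma). Tmsb10, a thymosin gene, differed by 1.09 ± 0.15, Iqgap1, a cytoskeletal scaffold gene, by 1.03 ± 0.14 and Tppp3, a tubulin-binding protein gene, by 2.03 ± 0.22, each called on the Klf8-intact background too. Acp5, the gene of tartrate-resistant acid phosphatase, rose by 1.28 ± 0.09, to 11.87, 11.66, 11.48 and 11.63 from 10.25 to 10.43. The adjoining genes Cbr1 and Setd4 rose by 2.15 ± 0.21 and 1.95 ± 0.21, and both were called on the intact background (adjusted p = 0.000367 and 0.00021). Vegfa, the angiogenic growth factor gene, rose by 1.13 ± 0.20 (adjusted p = 0.00532) and Car1, the red cell carbonic anhydrase gene, by 0.98 ± 0.25 (adjusted p = 0.0424). Their differences on the intact background were 0.14 and 0.49 (adjusted p = 0.892 and 0.70), and the interaction did not pass (adjusted p = 0.194 and 0.552). Crip1 rose by 2.06 ± 0.43 with one array, double-mutant replicate 1, at 11.60 and the other three between 9.35 and 9.61.

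Further liver genes were lower. Cps1, the urea cycle gene, fell by 1.33 ± 0.28, Crp, the C-reactive protein gene, by 1.35 ± 0.25, Arg1, the arginase gene, by 1.07 ± 0.18 and Abcb11, the bile salt pump gene, by 1.15 ± 0.26. The arrays of both groups overlapped for Cps1 and Abcb11. Klf3-/- against wild type gave differences of 0.16, 0.21, 0.00017 and 0.17 for these genes, none past the threshold (adjusted p = 0.914, 0.874, 1 and 0.906, limma). Crp read 6.73, 7.84, 6.73 and 7.77 on the double-mutant arrays and 8.04, 8.94, 8.65 and 8.82 on the Klf8-trap arrays.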
